A study of Mus musculus with 8 samples.

Results

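The sites described here are places deep inside genes where peaks of phosphorylated RNA polymerase II were found in every library of a study in MEL cells, a mouse erythroid leukemia line that resembles early red-cell precursors. Overlapping peaks of 8 peak lists were merged into 56005 regions, and 11773 regions held a peak in all 8 lists. A region was kept when its midpoint lay inside a RefSeq protein-coding gene (GRCm38) and over 10000 bp from every protein-coding 5′ end, which left 2043 sites in 1510 host genes, or 17.4% of the regions found in all 8 libraries. The presence of a peak in every library and the distance from gene starts chose the sites and are therefore not results.

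The libraries came from CUT&Tag, in which an antibody directs a transposase to chromatin and the released fragments are sequenced, on 1000000 cells per library. Antibodies named D9N5I and E1Z3G recognised Rpb1, the largest subunit of RNA polymerase II, with its C-terminal domain phosphorylated on Ser5 (Ser5P) or Ser2 (Ser2P). Both edited lines carried dCAS, a Cas9 without cutting activity: a control line, dCAS_control, and a line named dCAS_Myrlin, in which Myrlin, an RNA made at an enhancer 81 kb upstream of Myb, was targeted (called KD below). The 4 groups, Ser5P control, Ser5P KD, Ser2P control and Ser2P KD, had 2 libraries each. The labels call these biological replicates without saying how cultures were separated or whether a line is 1 clone, so p-values measure only the spread between these libraries. Peak lists do not measure RNA, so the knockdown itself could not be checked here.

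RNA polymerase II carries a long repeated tail that kinases mark in order: Ser5 is phosphorylated as transcription begins, and Ser2 as the enzyme moves into and through the gene. Ser5P is therefore best known from promoters and Ser2P from gene bodies and the region near the 3′ end. Sharp sites far inside a gene can be internal promoters of shorter transcripts, enhancers lying in introns, genes of non-coding RNAs nested in the host, or places where polymerase slows, and in blood cells many known enhancers lie inside the genes of transcription factors. The peak lists do not say which of these a site is.

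Annotated starts inside the genes gave the sequences that can be shown for the sites. RefSeq promoter windows (GRCm38, 250 bases before to 50 after a start) were present for 1212 of the 1510 host genes, holding 1658 sites, and 203 of those sites (12.2%) lay within 1000 bp of an annotated start other than the outer 5′ end of the gene. The windows below are those of 4 sites with high folds, of a start in Gse1, the host with the most sites, and of 1 CpG-poor start for contrast. They are printed 5′ to 3′ on the strand of the gene. Capitals mark GGGCGG or its reverse complement CCGCCC, the core of the GC box bound by the Sp family of transcription factors. Hdac4 encodes a class II histone deacetylase, and its window (chr1:92180292-92180591, minus strand) was 68.0% G and C with 32 CpG and 5 GC boxes.
Hdac4: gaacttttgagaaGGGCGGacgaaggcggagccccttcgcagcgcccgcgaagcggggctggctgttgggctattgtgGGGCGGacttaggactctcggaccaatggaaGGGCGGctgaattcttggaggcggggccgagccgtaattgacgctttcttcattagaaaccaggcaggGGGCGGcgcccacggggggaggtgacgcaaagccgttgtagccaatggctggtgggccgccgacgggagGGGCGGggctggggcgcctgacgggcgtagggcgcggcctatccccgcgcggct
Iffo2, an intermediate filament family gene, had a window (chr4:139574470-139574769, plus strand) of 71.7% G and C with 24 CpG and 4 GC boxes.
Iffo2: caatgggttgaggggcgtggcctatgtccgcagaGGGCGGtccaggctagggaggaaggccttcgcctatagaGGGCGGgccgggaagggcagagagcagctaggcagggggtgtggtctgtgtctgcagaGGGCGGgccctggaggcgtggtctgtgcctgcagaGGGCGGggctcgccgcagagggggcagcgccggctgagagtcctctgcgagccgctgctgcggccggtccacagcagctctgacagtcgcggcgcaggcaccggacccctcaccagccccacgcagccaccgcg
Gse1 encodes a coiled-coil protein of co-repressor complexes, and the window at its site 11 (chr8:120537159-120537458, plus strand) was 74.7% G and C with 37 CpG and 3 GC boxes.
Gse1: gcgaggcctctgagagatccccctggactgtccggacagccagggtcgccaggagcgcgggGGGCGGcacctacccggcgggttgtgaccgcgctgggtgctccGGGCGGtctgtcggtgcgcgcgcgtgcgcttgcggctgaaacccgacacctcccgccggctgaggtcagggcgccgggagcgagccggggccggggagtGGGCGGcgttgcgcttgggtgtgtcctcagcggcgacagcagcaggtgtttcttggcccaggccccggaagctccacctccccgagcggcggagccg
Kansl1, a subunit of a histone acetyltransferase complex, had a window (chr11:104442271-104442570, minus strand) of 75% G and C with 40 CpG and 2 GC boxes.
Kansl1: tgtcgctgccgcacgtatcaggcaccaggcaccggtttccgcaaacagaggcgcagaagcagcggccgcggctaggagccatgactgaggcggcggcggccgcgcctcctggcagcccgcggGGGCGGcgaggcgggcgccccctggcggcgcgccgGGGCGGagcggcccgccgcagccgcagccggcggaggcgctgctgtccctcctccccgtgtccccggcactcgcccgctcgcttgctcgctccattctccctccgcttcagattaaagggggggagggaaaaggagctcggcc
Lrif1, a nuclear receptor-interacting chromatin protein, had a window (chr3:106721432-106721731, plus strand) of 47.7% G and C with 12 CpG and 1 GC box.
Lrif1: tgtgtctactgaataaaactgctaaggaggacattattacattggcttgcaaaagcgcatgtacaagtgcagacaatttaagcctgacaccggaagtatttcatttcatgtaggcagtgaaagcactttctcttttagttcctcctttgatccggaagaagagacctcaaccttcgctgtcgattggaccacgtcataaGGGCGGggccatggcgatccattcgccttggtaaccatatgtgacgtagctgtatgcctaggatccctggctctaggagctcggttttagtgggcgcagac
Sema4d, a semaphorin of immune cells, had a start at its site 5 (chr13:51756634-51756933, minus strand) whose window was 52.0% G and C with 2 CpG and 0 GC boxes.
Sema4d: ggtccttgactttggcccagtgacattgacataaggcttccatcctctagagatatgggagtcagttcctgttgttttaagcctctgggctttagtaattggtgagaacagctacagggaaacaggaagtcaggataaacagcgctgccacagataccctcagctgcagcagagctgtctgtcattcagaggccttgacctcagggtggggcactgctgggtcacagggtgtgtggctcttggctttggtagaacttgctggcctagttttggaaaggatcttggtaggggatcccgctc
The first 4 windows are CpG-rich and carry from 2 to 5 GC boxes, while the Sema4d window has almost no CpG.

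Windows of starts inside the sites differed in composition from those of other deep starts. Of 1657 annotated starts over 10000 bp from gene 5′ ends, 212 (12.8%) lay inside a site and 1294 (78.1%) had no peak in any library. The 212 windows, from 182 genes, had a median of 61.7% G and C and 20 CpG, against 50.3% and 5 in the 1294 windows with no peak. GGGCGG on either strand was in 63.7% of the windows inside sites, in 24.4% of those with no peak and in 46.2% of all 21263 promoter windows. CCGGAAG, a core bound by ETS factors, was in 13.7%, 2.24% and 11.6% in the same order. AGATAA, the core of a GATA factor site, was in 7.08%, 10.5% and 9.65%. These are matches of letters on both strands and not measured binding, and some genes gave more than 1 window.

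The libraries held 20793 to 32125 peaks. The number of fragments was not given, but the genome-wide background level of the peak caller, a measure that follows depth, was 0.564 to 0.844 in Ser5P and 0.440 to 1.121 fragments in Ser2P, with Ser2P control 2 the shallowest. The labelled cell type was checked at promoters of marker genes: a peak in all 8 libraries was found at 7 of 20 erythroid markers (among them Car2, Epor, Klf1, Tal1, Tfrc and Trim10), 3 of 20 megakaryocyte or mast cell markers (Gp5, Gp9 and Itga2b) and 0 of 20 each of myeloid, lymphoid and non-haematopoietic markers. No library had a promoter peak at 6 of the erythroid, 14 of the megakaryocyte or mast cell, 18 of the myeloid, 17 of the lymphoid and 17 of the non-haematopoietic markers. In the window of 2000 bp on either side of the point 81 kb upstream of Myb, peaks covered 513, 237, 275 and 0 bp in Ser5P control 1, control 2, KD 1 and KD 2, and 302, 0, 0 and 316 bp in the same order of Ser2P. Neither antibody separated the lines at this window.

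The following measures describe a site in a library: the covered bp (how many bases its peaks cover), the fold of the highest peak over the local background, and the summit pileup, the number of fragments stacked at the summit. Fold and pileup were compared between libraries as percentiles among the regions found in all 8 libraries, where 0 is the lowest and 100 the highest, since the libraries differ in depth.

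The sites were compact, and the distance rule by itself places them in genes over 10000 bp long and away from gene starts. The median site was 882 bp wide (quartiles 715 and 1122 bp), lay 29512 bp from the nearest 5′ end (quartiles 17349 and 52261 bp) and at 56.6% of the length of a host gene of 86214 bp, and 1808 of the sites were a single peak in every library. From the start to the end of the gene, in bins of 20% of its length, there were 206, 412, 474, 462 and 486 sites among the 2040 with a known gene strand; the distance rule keeps sites out of the first part. Of all regions deep inside genes in any library, 8.9% had a peak in every library, against 66.8% of promoter regions. Per megabase the sites were denser than their counterparts between genes, at 2.44 per Mb over 839 Mb against 0.979 per Mb over 1450 Mb. A lncRNA gene overlapped 152 sites, and miRNA, snoRNA and tRNA genes overlapped 2, 1 and 0.

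Many hosts had no peak at their outer promoter. The promoter of the host had a peak in all 8 libraries for 957 sites (46.8%), in 1 to 7 libraries for 464, and in none for 619 (30.3%). Among genes long enough to have deep sequence, 714 of 4984 (14.3%) with a constant promoter peak hosted a site, against 463 of 6026 (7.68%) with no promoter peak, or 4.36 against 1.16 sites per Mb. Gse1, Hdac4, Iffo2, Runx1 and Gypc were among the hosts with sites and with no promoter peak in any library.

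Deep sites were narrower and lower than promoters in each library. Their median covered length was 605, 646, 593 and 630 bp in Ser5P control 1, control 2, KD 1 and KD 2, and 611, 458, 664 and 635 bp in Ser2P in the same order. Constant promoters covered 761, 788, 808 and 850 bp, and 742, 584, 853 and 824 bp. The log2 ratio of deep sites to promoters was -0.358 ± 0.0604 (SD, n = 8 libraries) and below 0 in all 8 (exact sign-flip permutation test, two-sided, p = 0.00781, 0.0165 after Benjamini-Hochberg adjustment over 19 tests). Against constant sites between genes the widths did not differ beyond the spread (exact permutation p = 0.141).

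The ratio to promoters had the same size with both antibodies but was lower in each KD library than in each control library of its antibody. Ser5P minus Ser2P was -0.032 (exact permutation over libraries, 4 against 4, p = 0.514). KD minus control was -0.13 with Ser5P and -0.0532 with Ser2P, and -0.0918 over both, with an exact permutation p of 0.0556, the smallest the 36 arrangements within antibodies can give, and 0.102 adjusted over 22 tests. The median fold percentile of deep sites went the same way, at 39.1, 38.1, 33.5 and 34.7 in Ser5P control 1, control 2, KD 1 and KD 2 and 38.7, 39.2, 36.3 and 36.1 in Ser2P. That of promoters was 61.2 to 62.1 in control and 63.0 to 63.8 in KD libraries. Promoters were 6293 of the 11773 ranked regions, so their rise and the fall of deep sites are not independent. Background levels were also higher in KD than in control libraries of each antibody, 0.648 and 0.844 against 0.564 and 0.639 in Ser5P, and 1.121 and 1.032 against 0.782 and 0.440 in Ser2P; the part of depth in these differences was not tested.

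**Figure D1:**
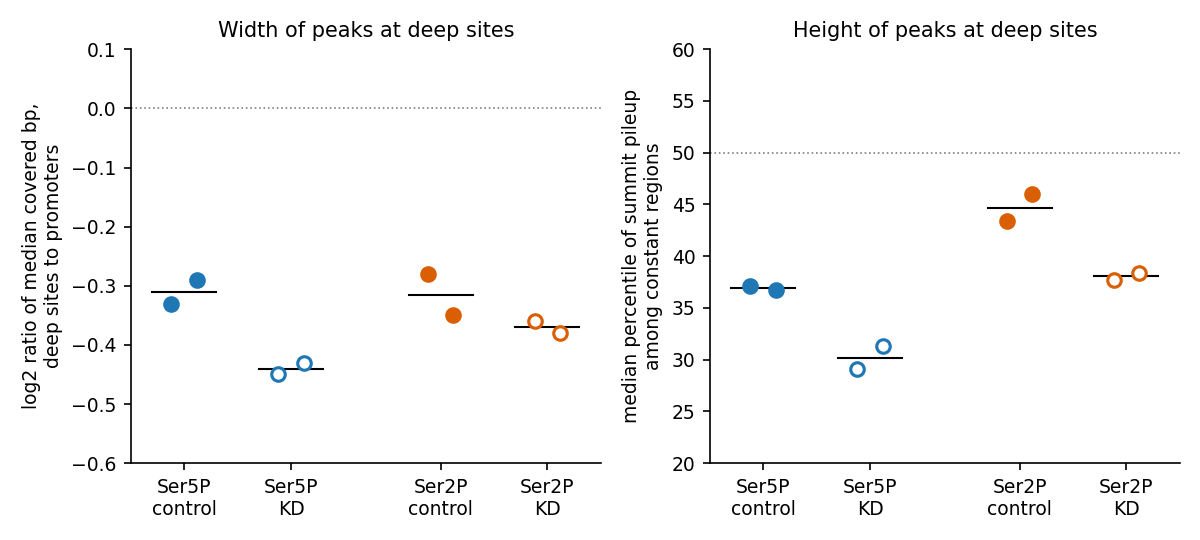
Left, log2 ratio of the median covered bp of deep sites to that of promoters; right, median summit pileup percentile of deep sites among the constant regions. Points are the 8 libraries (blue Ser5P, orange Ser2P, filled control, open KD) and bars are means of 2; the ratio lies below 0 in all 8, and the percentiles run from 29.1 to 37.1 with Ser5P and from 37.7 to 46.0 with Ser2P.

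Summit height ordered the antibodies without overlap, which the width ratio did not. The median summit pileup of deep sites was 27, 29, 23 and 28 fragments in Ser5P control 1, control 2, KD 1 and KD 2, against 39, 42, 41 and 47 at promoters. In Ser2P it was 33, 21, 37 and 34, against 40, 24, 52 and 46 at promoters. As a percentile among constant regions, deep sites stood at 37.1, 36.7, 29.1 and 31.3 with Ser5P and at 43.4, 46.0, 37.7 and 38.4 with Ser2P, and every Ser2P library lay above every Ser5P library. The difference was -7.86 percentile points for Ser5P minus Ser2P (exact permutation p = 0.0286, the smallest that 4 against 4 allows, 0.0899 adjusted over 22 tests). KD minus control was -6.66 with Ser5P and -6.67 with Ser2P (exact permutation over both, p = 0.0556, the smallest possible).

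Each site was then tested with limma across the 11747 constant regions whose summit pileup was known in every library. The ranks within a library were turned into normal scores, on which 0 is the middle region and 1 is 1 SD above it. This measure was chosen after the values were seen. Of 2037 deep sites tested, 675 passed an adjusted p of 0.05 between the antibodies, where the share over all regions was 29.8%. Ser2P was higher at 518 sites (25.4%, against 15.6% of all regions) and Ser5P at 157 (7.71%, against 14.2% of all regions). Promoters gave 11.9% and 14.8% in the same order, and constant sites between genes 21.3% and 14.6%. Leaving out 1 library at a time left 463 to 638 calls.

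Examples of sites with higher Ser2P lay in Ankrd11, Farp1, Asap1 and Arid1b. Ankrd11 encodes a chromatin regulator that recruits histone deacetylases, and its site 1 (chr8:122890472-122892080) lies at 95% of the gene. Its summit pileup was 24, 22, 21 and 28 fragments in Ser5P control 1, control 2, KD 1 and KD 2 and 65, 37, 90 and 80 in Ser2P. All 4 Ser2P libraries were above all 4 Ser5P libraries, and the difference was -1.57 normal scores (SE 0.119, limma adjusted p = 1.15e-04). Farp1, a guanine nucleotide exchange factor, held a site at 98.2% of the gene (chr14:121278904-121279656) with pileups of 20, 20, 21 and 21 against 67, 43, 75 and 88, a difference of -1.84 (limma adjusted p = 8.59e-05). Asap1 is a GTPase-activating protein for Arf proteins that acts at focal adhesions, and at its site 2 (chr15:64117459-64118875) the pileups were 22, 24, 19 and 19 against 66, 50, 78 and 69 (-1.79, limma adjusted p = 7.49e-05). Arid1b, a subunit of the BAF chromatin remodelling complex, had 9, 10, 10 and 9 fragments against 28, 25, 40 and 35 at its site 4 (-2.11, limma adjusted p = 2.01e-04). At none of these 4 sites did the raw counts of the antibody groups overlap. Here and below, overlap in fragments is of raw counts from libraries that differ in depth, whereas limma tested ranks within a library.

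Sites with higher Ser5P were fewer and included 1 beside the end of a non-coding gene and 1 at an internal start. Clasp1 encodes a protein that stabilises microtubules, and its site (chr1:118458742-118459882) lies 47 bp from an end of the non-coding gene 2900060B14Rik. The pileups were 220, 265, 288 and 290 fragments with Ser5P and 68, 47, 98 and 97 with Ser2P, with no overlap (1.39 normal scores, SE 0.113, limma adjusted p = 1.68e-04). Abl2 is a tyrosine kinase that remodels actin, and its site (chr1:156615270-156616197) had 68, 105, 75 and 77 fragments against 30, 17, 39 and 24 (1.60, limma adjusted p = 4.78e-04). Tbcel, a tubulin-cofactor-like gene, held a site 355 bp from an annotated start (chr9:42461277-42462289) with 72, 77, 56 and 66 against 32, 21, 27 and 29 (1.32, limma adjusted p = 2.21e-04). The sites of Clasp1, Abl2 and Tbcel thus stood high with Ser5P in both lines. The sites named in these accounts of summit pileup were chosen after their values were seen.

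Sites nearer the end of their host gene had higher summits, and with Ser2P more than with Ser5P. The 1837 sites with a known strand and no annotated start within 1000 bp were divided by position into bins of 20% of the gene's length, with 188, 345, 418, 416 and 470 sites. The bins hold different genes, since the distance rule keeps short hosts out of the first bin, and host length was not held equal. From the first to the last bin the median pileup percentile went through 32.3, 39.1, 43.4, 45.4 and 49.2 in Ser2P control 1 and through 32.1, 39.6, 46.0, 46.0 and 51.9 in Ser2P control 2. In Ser2P KD 1 it went through 25.6, 29.3, 32.7, 37.7 and 44.3, and in KD 2 through 25.8, 30.6, 36.4, 38.4 and 45.6. In each Ser2P library no bin lay below the one before it.

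The Ser5P libraries had a smaller slope. Ser5P control 1 went through 30.2, 32.6, 37.1, 37.1 and 34.9 and control 2 through 33.5, 34.5, 34.5, 34.5 and 36.7. Ser5P KD 1 went through 25.6, 26.8, 26.8, 31.5 and 32.6 and KD 2 through 23.2, 25.2, 29.4, 31.3 and 33.2. The last bin minus the first was 6.22 ± 2.96 percentile points in Ser5P and 18.8 ± 1.37 in Ser2P (SD, n = 4 libraries each), above 0 in all 8 libraries. The antibodies differed by -12.6 points (exact permutation p = 0.0286, the smallest possible, 0.0899 adjusted over 22 tests), by -14.4 within control and -10.7 within KD libraries. Calls followed the same order: Ser2P was higher at 13.4%, 22.8%, 25.6%, 26.4% and 37.1% of the sites from the first to the last bin, and Ser5P at 11.8%, 7.6%, 7.42%, 5.29% and 5.12%. Covered bp had no such slope (mean log2 ratio of the last to the first bin 0.0162, exact permutation p = 0.461).

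**Figure D2:**
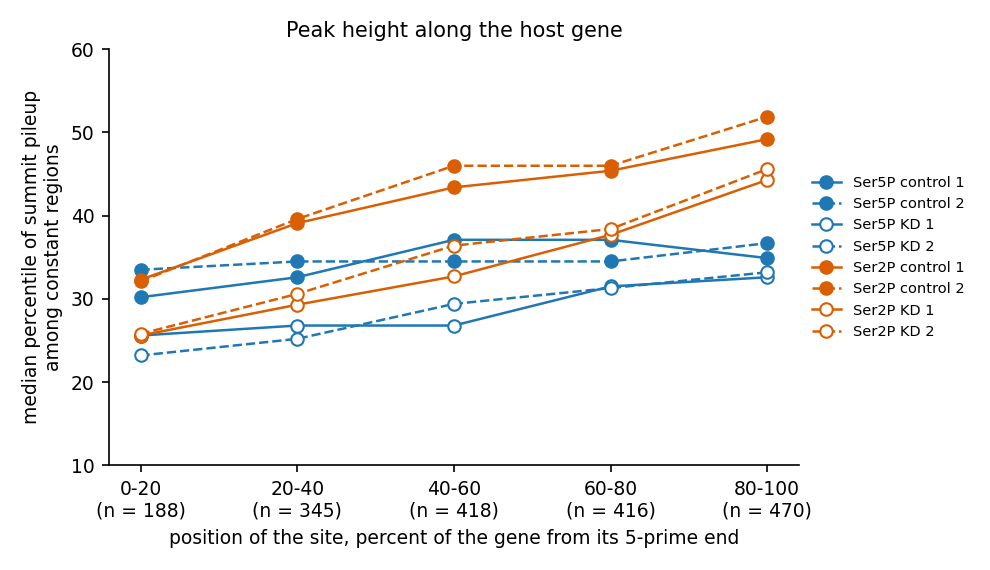
Median summit pileup percentile of deep sites (y axis, among constant regions) in bins of 20% of the host gene from its 5′ end (x axis, with the number of sites), a line for each of the 8 libraries. Ser2P lines (orange) end between 44.3 and 51.9 in the last bin, and Ser5P lines (blue) between 32.6 and 36.7; filled points are control and open points KD.

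Width called few sites between the antibodies. limma on the median-centred log2 of covered bp called 11 of 2043 deep sites, 0.538% against 0.595% of all constant regions, and 275 (13.5%) had an unadjusted p under 0.05, against 1643 of all 11773 regions. Ser5P was wider at 7 sites (0.425% of all regions were called in this direction) and Ser2P at 4 (0.17%). By the rank of fold it called 14 sites (0.773% of all regions), 8 higher with Ser5P (0.484%) and 6 with Ser2P (0.289%). Of the 11 sites called by width, only Tex14 site 5 also passed on the rank of fold (limma adjusted p = 0.0253). Whichever library was left out, at most 1 of the 11 calls passed.

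The widest site, 3561 bp long, was one of the 7. It lies in Kdm6b, a histone H3 lysine demethylase (chr11:69408525-69412085), and its peaks covered 2148, 2862, 2841 and 3436 bp in Ser5P control 1, control 2, KD 1 and KD 2 and 1202, 682, 1625 and 1144 bp in Ser2P (log2 difference 1.21, SE 0.174, limma adjusted p = 0.0343). Fam186b covered 1403, 1278, 1263 and 1586 bp against 676, 403, 480 and 568 bp (1.28, limma adjusted p = 0.0192). Abcc3, a transporter of the ABC family, covered 847, 1182, 660 and 596 bp against 493, 321, 396 and 341 bp (0.94, limma adjusted p = 0.0477). The groups did not overlap at Kdm6b, Fam186b or Abcc3. The other 4 sites wider with Ser5P lie over small nuclear RNA genes.

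The 4 sites wider with Ser2P lie in the later part of their genes. Ankrd11 site 1 covered 914, 754, 362 and 556 bp in the Ser5P libraries and 1347, 1185, 1484 and 1538 bp in the Ser2P libraries (-1.29, limma adjusted p = 0.0248). Plbd1, a phospholipase B-like gene, covered 233, 260, 507 and 439 against 799, 458, 702 and 852 bp (-1.12, limma adjusted p = 0.032). Ash1l, a histone H3 lysine methyltransferase, covered 591, 691, 421 and 589 against 1249, 660, 1377 and 1351 bp (-1.10, limma adjusted p = 0.0422). Nme9 covered 637, 792, 927 and 834 against 1403, 943, 1443 and 1582 bp (-0.85, limma adjusted p = 0.0477). At Plbd1 and Ash1l the groups overlapped through Ser2P control 2, the shallowest library, and at Ankrd11 and Nme9 they did not. On the rank of fold the sign turned at Kdm6b (-0.54), Abcc3 (-0.1), Fam186b (-0.08), Ash1l (0.18) and Ankrd11 (0.27), and on the rank of pileup at Abcc3 (-0.22).

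A group of 6 deep sites lay over genes annotated as small nuclear RNAs (snRNAs), the RNA parts of spliceosome and processing particles, which have compact promoters of their own. They are 5 sites in Tex14, a gene of germ-cell bridges (over Rnu1a1, Gm22068, Rnu3b1, Rnu3b3 and Rnu3b4), and 1 in Hhat, an acyltransferase (over Gm22265). The annotation used here places the U3 genes (Rnu3b1, Rnu3b3 and Rnu3b4) in this class and not among the snoRNA genes counted earlier. All 6 were wider with Ser5P, with a median log2 difference of 0.98, and 4 passed the test. Over all classes of constant region 30 of 35 snRNA sites were wider with Ser5P, and 13 passed in that direction and 0 in the other. Of all constant regions, 0.425% passed with Ser5P wider and 0.17% with Ser2P wider. The 5 Tex14 sites lie in 1 gene and were counted separately. This grouping was chosen after the values were seen.

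Hhat site 1 (chr1:192745280-192747789) covered 2346, 2422, 2451 and 2482 bp with Ser5P and 1060, 931, 1428 and 1229 bp with Ser2P (0.96, limma adjusted p = 0.0248), and its pileups were 327, 374, 487 and 602 against 44, 20, 54 and 54 fragments. Tex14 site 5 covered 1784, 1814, 1685 and 1683 bp against 563, 576, 639 and 576 bp (1.45, limma adjusted p = 0.0159). Tex14 site 4 (chr11:87448114-87450039) covered 1486, 1754, 1378 and 1842 against 576, 605, 656 and 665 bp (1.25, limma adjusted p = 0.0248), and Tex14 site 1 1229, 1234, 1561 and 1566 against 690, 729, 612 and 579 bp (0.98, limma adjusted p = 0.0326). The Ser5P values at these 4 sites were all above the Ser2P values. The U1 and U3 genes have near-identical copies elsewhere in the genome, so which copy gave the fragments is uncertain.

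**Figure D3:**
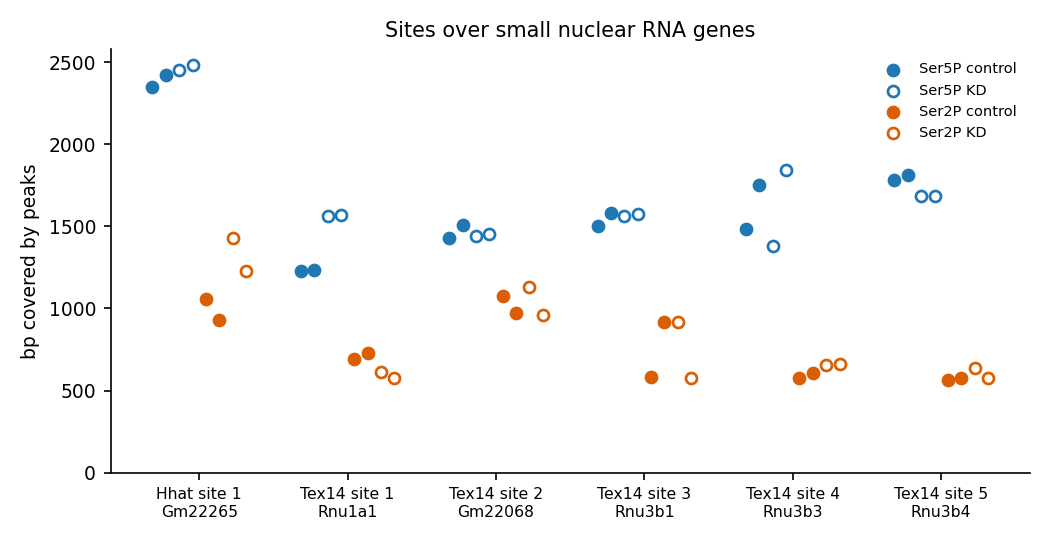
Covered bp (y axis) at the 6 deep sites over small nuclear RNA genes (x axis), a point for each library (blue Ser5P, orange Ser2P, filled control, open KD). At Hhat site 1 the Ser5P libraries cover 2346 to 2482 bp and the Ser2P libraries 931 to 1428 bp.

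Sites at annotated internal starts were wider and had higher folds over local background than other deep sites. The 203 sites within 1000 bp of such a start exceeded the others in width in all 8 libraries, by log2 ratios of 0.14, 0.18, 0.32 and 0.30 in Ser5P control 1, control 2, KD 1 and KD 2 and of 0.13, 0.13, 0.23 and 0.25 in Ser2P (exact sign-flip permutation p = 0.00781, adjusted 0.0165). Their fold percentile was higher by 14.1, 12.8, 18.9 and 20 points in Ser5P and by 9.68 to 19.4 points in Ser2P (exact sign-flip permutation p = 0.00781, adjusted 0.0165). Both measures were above the other deep sites in each library.

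Their summits exceeded those of other deep sites by more in each Ser5P library than in each Ser2P library. The pileup percentile was higher than at other deep sites by 12.7, 13.3, 15.1 and 17.9 points with Ser5P, and by 1.95, -3.05, 11.3 and 10.8 points with Ser2P. The antibodies differed by 9.48 points, with no overlap (exact permutation p = 0.0286, the smallest possible, 0.0899 adjusted). Ser5P was higher at 31 of the 203 (15.3%) and Ser2P at 24 (11.8%) in the test of each site, while over all deep sites the shares were 7.71% and 25.4%. The outer promoter of the host had no peak in any library for 44.8% of these sites, against 28.7% of the other deep sites. These groups were formed after the values were seen.

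Of the starts whose sequences are printed above, those of Hdac4, Iffo2, Kansl1 and Lrif1 were chosen for their high folds, so their height is a description. Summit pileups at Hdac4 were 126, 116, 112 and 141 fragments in Ser5P control 1, control 2, KD 1 and KD 2 and 140, 104, 140 and 132 in Ser2P. Iffo2 had 124, 123, 107 and 120 with Ser5P and 144, 84, 184 and 165 with Ser2P, and Kansl1 had 102, 114, 87 and 106 and then 88, 54, 105 and 96. The antibody ranks did not pass the test at Hdac4 (limma adjusted p = 0.109) or Kansl1 (0.504), and Ser2P was higher at Iffo2 (-0.44, limma adjusted p = 0.0162). Lrif1, with 76, 102, 68 and 80 against 45, 31, 50 and 50 fragments, was higher with Ser5P (0.79, limma adjusted p = 0.00215). The CpG-poor start of Sema4d had 17, 17, 18 and 12 against 15, 9, 21 and 17 fragments and no difference that passed (0.21, SE 0.213, limma adjusted p = 0.479).

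Few sites differed between the control and KD lines. By covered bp limma called 0 deep sites with either antibody, as it called 0.0% of all regions, with 198 (Ser5P, 9.69%) and 221 (Ser2P, 10.8%) at an unadjusted p under 0.05, against 858 and 1167 of all 11773 regions. By summit pileup rank it called 21 with Ser5P (0.519% of all regions were called), 19 of them lower in KD (0.933%, against 0.315% of all regions) and 2 higher (0.204% of all regions). With Ser2P it called 44 (1.04% of all regions), 40 lower in KD (1.96%, against 0.664%) and 4 higher (0.375% of all regions). Constant sites between genes were lower in KD at 0.848% with Ser5P and 1.34% with Ser2P, and promoters at 0.0955% and 0.111%. The calls rest on all 8 libraries: the Ser5P count was 0 without either Ser5P control, Ser5P KD 2 or either Ser2P KD library, 2 without Ser5P KD 1 and 7 without either Ser2P control. The Ser2P count was 0 without Ser2P control 2 or either Ser2P KD library, 5 without either Ser5P control, 18 without either Ser5P KD library and 12 without Ser2P control 1. With the replicate number as a block the counts were 2 and 21.

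In 9 sites the call was made with both antibodies, and 8 of these were lower in KD: the sites of Zbtb16, Glg1, Map3k4, Tfdp2, Ttc39b (site 1), Tbc1d2b (site 2), Plekha6 (site 1) and Rock1. All 19 sites called lower with Ser5P also had lower values with Ser2P, and all 40 called lower with Ser2P also had lower values with Ser5P. Over all 2037 tested sites, 955 had lower ranks in KD with both antibodies and 419 higher ranks with both. The median KD minus control of deep sites was -0.13 normal scores with Ser5P and -0.14 with Ser2P, against 0.0 and 0.01 over all regions. Calls and directions shared by the antibodies were not counted over all constant regions, so they are not shown to be particular to deep sites. The effect of KD was not shown to differ between the antibodies: the interaction test called 0 sites, with 151 (7.41%) at an unadjusted p under 0.05, against 843 of all 11747 regions.

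Plekha6 encodes a pleckstrin-homology protein of cell junctions. Its site 1 (chr1:133244604-133245249) had pileup percentiles of 64.2 and 59.8 in the Ser5P controls and 21.9 and 19.2 in the Ser5P KD libraries (-1.13 normal scores, SE 0.156, limma adjusted p = 0.0375). With Ser2P they were 78.4 and 77.7 in control and 21.8 and 17.0 in KD (-1.64, SE 0.156, limma adjusted p = 0.00725). Control and KD did not overlap with either antibody.

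Glg1, a Golgi sialoglycoprotein that binds fibroblast growth factors and E-selectin, held a site (chr8:111188666-111189168) at percentiles 37.1 and 28.2 in the Ser5P controls and 3.39 and 1.54 in KD (-1.54, limma adjusted p = 0.0375). With Ser2P it stood at 54.5 and 68.2 in control and 8.26 and 4.88 in KD (-1.82, limma adjusted p = 0.0173). Zbtb16 is the PLZF transcription factor of stem and progenitor cells, and its site (chr9:48814566-48815364) fell from 51.2 and 42.6 to 3.39 and 7.71 with Ser5P and from 41.3 and 51.9 to 4.39 and 13.1 with Ser2P (limma adjusted p = 0.0448 and 0.0474). Rock1 is a kinase that drives actomyosin contraction, and its site fell from 54.4 and 52.6 to 14.8 and 15 with Ser5P and from 90.0 and 91.6 to 55.3 and 62.9 with Ser2P (limma adjusted p = 0.0375 and 0.0296). Both controls lay above both KD libraries at Glg1, Zbtb16 and Rock1 for each antibody.

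Tfdp2 encodes the dimer partner of E2F factors, and its site (chr9:96241406-96242046) fell with Ser5P from 68.8 and 67.5 to 19.5 and 25.2, and with Ser2P from 71.6 and 80 to 36.0 and 40.3 (limma adjusted p = 0.0375 and 0.0421). Cd44, the hyaluronan receptor, was called with Ser5P, from 66.6 and 46.1 in control to 8.41 and 4.52 in KD (-1.70, limma adjusted p = 0.0375). With Ser2P the Cd44 site had 73.6 and 68.2 in control and 39.3 and 23.0 in KD, which did not pass (-1.06, limma adjusted p = 0.0808). Itga4, an integrin subunit by which erythroid precursors adhere, fell with Ser2P from 61.9 and 59.7 in control to 20 and 20.9 in KD (-1.10, limma adjusted p = 0.0245), and stood at 47.6 and 44.4 against 21.9 and 21.2 with Ser5P (-0.69, limma adjusted p = 0.0814).

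Sites higher in KD were fewer. The site of Sfi1, a centrosomal protein, (chr11:3184301-3186458) rose from 49.5 and 58.4 to 90.4 and 90.0 with Ser5P and from 64.6 and 54.7 to 90.4 and 92.6 with Ser2P (limma adjusted p = 0.0375 and 0.0339). Sfi1 has near-identical copies in the mouse genome, so the placement of its fragments is uncertain. At Tmem267 the Ser2P percentile rose from 67.0 and 70 to 96.7 and 96.6 (1.35, limma adjusted p = 0.0173), and the Ser5P percentile was 84.1 and 83.8 in control and 96.7 and 95 in KD (0.76, limma adjusted p = 0.0752). Of the lists of genes described next, blood regulators had 0 of 46 sites called between the lines, where 0.933% (Ser5P) and 1.96% (Ser2P) of all deep sites were lower in KD, shares at which a list of this size may hold no call. Signalling genes had 2 of 24 sites lower with Ser2P, sites 1 and 2 of Plcg2, a phospholipase C. Actin regulators had 2 of 26 lower with Ser5P, in Limk1 and Rock1, and 1 of 26, in Rock1, with Ser2P.

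**Figure D4:**
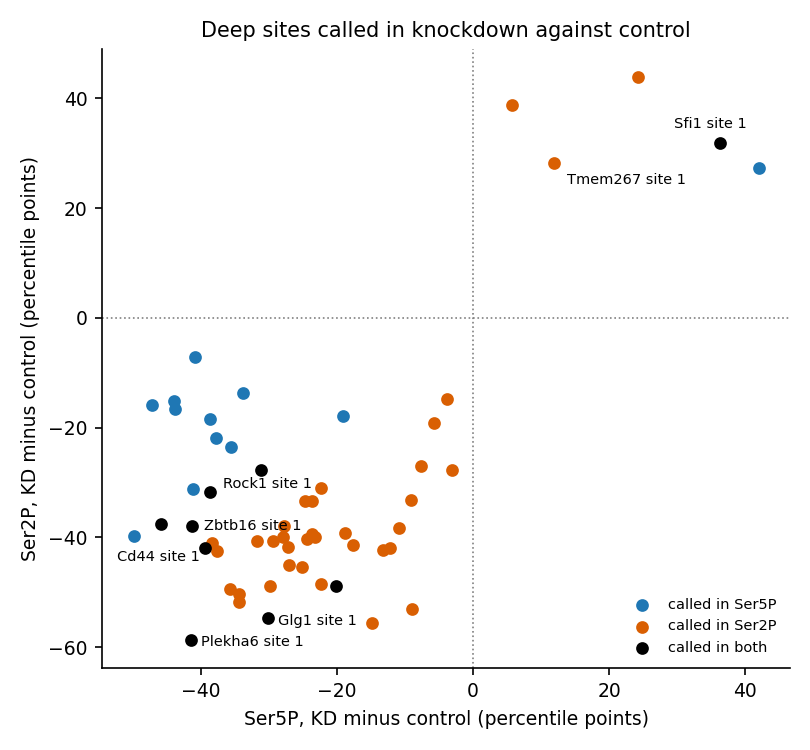
The 56 deep sites called between KD and control, with the mean pileup percentile in KD minus that in control for Ser5P (x axis) and Ser2P (y axis), in percentile points; blue and orange points were called with Ser5P or Ser2P alone and black points with both. The 8 black points at the lower left are lower in KD with both antibodies, and Sfi1 at the upper right is higher.

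The host genes were unevenly used. A single site was found in 1151 hosts, 2 in 262, 3 in 63 and 4 or more in 34 genes, which together held 179 sites. Gse1 had 12 sites over 289 kb, Cbfa2t3 11 over 53.0 kb, Prkag2 (a subunit of the energy sensor AMPK) 8 over 213 kb, Nt5c2 (a cytosolic nucleotidase) 8 over 101 kb and Asap1 7 over 235 kb. Mtss1, Septin9 and Sema4d had 6 each. Adcy7, Ankrd11, Arid1b, Itsn1, Ptpre, Rere and Rftn1 had 5 each.

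Cbfa2t3 was the densest host. It encodes ETO2, a co-repressor in the TAL1 and GATA1 complex of erythroid precursors, and its promoter had a peak in all 8 libraries. The median summit pileup over its 11 sites was 116, 130, 102 and 131 fragments in Ser5P control 1, control 2, KD 1 and KD 2 and 185, 111, 164 and 154 in Ser2P. In pileup its sites had median percentiles of 91.4 to 98.3, but in fold only 0.0212 to 9.48; the median local background at its sites was 46.9 to 88.2 fragments over the libraries, against 2.34 to 5.34 over all deep sites. Ser2P was higher at 8 of the 11 sites in the test of each site, all but sites 8, 9 and 10 (limma adjusted p = 0.0573, 0.106 and 0.108). Site numbers follow chromosome position and not the strand of the gene.

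Gse1 differed in that its outer promoter had no peak in any library. Its sites ranged in median pileup percentile from 7.98 to 97.0. At site 12 (chr8:120563248-120564657) the pileups were 104, 111, 111 and 136 with Ser5P and 181, 111, 228 and 224 with Ser2P, higher in rank with Ser2P (-0.84, SE 0.106, limma adjusted p = 9.34e-04). At site 11, the CpG-rich start printed above, they were 64, 57, 118 and 138 and then 134, 79, 210 and 195 (-0.90, limma adjusted p = 0.00103).

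Genes that regulate blood development hosted deep sites in 21 of 40 cases (52.5%), against 1510 of 13015 (11.6%) of all genes with deep sequence. They carried 46 sites, 9.96 per Mb against 2.41 per Mb over all genes, with a median of 59.0 kb of deep sequence per gene against 24.2 kb. This and the other gene lists were chosen with earlier results of these data known, so their shares are descriptions. The hosts were Cbfa2t3 (11 sites), Ikzf1 and Nfia (4 each), Bcl11a and Zfpm1 (3 each), Fli1, Meis1, Nfix, Runx1 and Sox6 (2 each), and 11 genes with 1 site. Ser2P was higher at 21 of the 46 sites (45.7%) and Ser5P at 1 (2.17%), against 25.4% and 7.71% of all deep sites. Sites of the same gene were counted separately, and 11 of the 46 lay in Cbfa2t3, most of them with higher Ser2P. All 3 sites of Zfpm1 were also higher with Ser2P.

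Zfpm1 encodes FOG1, the cofactor of GATA1, and Ser2P was higher at all 3 of its sites. At site 3 (chr8:122321236-122323343) the pileups were 115, 125, 128 and 153 in the Ser5P libraries and 199, 95, 234 and 211 in the Ser2P libraries; the lowest count, in Ser2P control 2, is that of the shallowest library, and the ranks differed by -0.66 (limma adjusted p = 0.00483). Runx1, a factor that founds and maintains blood stem cells, had 23, 19, 15 and 16 against 45, 21, 37 and 36 at its site 1 (-1.01, limma adjusted p = 0.00214). Ikzf1, the lymphoid and erythroid factor Ikaros, had 31, 37, 32 and 47 against 60, 40, 76 and 64 at site 3 (-0.78, limma adjusted p = 0.00233). Spi1, the myeloid factor PU.1, a gene known for virus-driven activation in mouse erythroleukemia, held the 1 site higher with Ser5P (chr2:91096432-91097900), with 45, 39, 36 and 39 against 25, 13, 25 and 36 fragments (0.85, limma adjusted p = 0.0107). Nfix site 1 was higher with Ser2P (-0.67, limma adjusted p = 0.0111), and the described sites of Fli1, Elf1, Meis1, Nfia and Sox6 did not pass (limma adjusted p from 0.0541 at Sox6 to 0.99 at Fli1).

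Genes of haem, iron and the red-cell membrane hosted sites in 8 of 28 cases (28.6%), with 15 sites and 15.2 per Mb. Sptb, the beta-spectrin of the red-cell skeleton, had 40, 51, 39 and 48 fragments with Ser5P and 80, 53, 119 and 109 with Ser2P at site 1 (chr12:76593610-76594761), with no overlap (-1.07, SE 0.112, limma adjusted p = 4.25e-04). Gypc, the glycophorin that ties the membrane to its skeleton, had 37, 42, 44 and 30 against 120, 82, 73 and 61 (-1.21, SE 0.17, limma adjusted p = 0.00153), also with no overlap. Nprl3, whose introns hold enhancers of the alpha-globin genes, had 53, 49, 35 and 49 against 79, 52, 57 and 58 at site 1 (chr11:32245450-32246049; -0.50, limma adjusted p = 0.0179) and 22, 18, 12 and 18 against 20, 15, 28 and 19 at site 2 (-0.21, limma adjusted p = 0.43). The 3 sites of Ank1, the ankyrin of the red-cell membrane, did not pass. Ser2P was higher at 5 of the 15 sites (33.3%) and Ser5P at 0, against 25.4% and 7.71% of all deep sites.

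Cytokine and signalling genes hosted sites in 14 of 39 cases (35.9%), with 24 sites and 5.57 per Mb, and Ser2P was higher at 12 of the 24 (50.0%) and Ser5P at 1 (4.17%), against the same shares of all deep sites (25.4% and 7.71%). Gab2, an adaptor below cytokine receptors, had 8, 12, 8 and 9 against 23, 29, 30 and 17 fragments (-1.73, SE 0.302, limma adjusted p = 0.00396). Smad3, the effector of TGF-beta receptors, had a call in each direction. Site 1, at 84.2% of the gene, had 14, 19, 16 and 16 against 35, 22, 44 and 27 (-1.07, limma adjusted p = 0.00301), while site 3, at 14.1%, had 20, 21, 18 and 20 against 19, 13, 17 and 16 (0.45, limma adjusted p = 0.017). Kit, the receptor of stem cell factor, had 9, 8, 7 and 7 against 12, 9, 10 and 13 at site 1 (-0.60, limma adjusted p = 0.0449), where the lowest pileup of any deep site was 5 to 7 fragments in the Ser5P libraries and 4 to 8 in the Ser2P libraries.

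Chromatin regulators hosted sites in 34 of 67 cases (50.7%, 56 sites, 6.87 per Mb) and actin regulators in 15 of 43 (34.9%, 26 sites, 2.93 per Mb). Ser2P was higher at 18 of the 56 (32.1%) and 7 of the 26 sites (26.9%), and Ser5P at 3 (5.36%) and 4 (15.4%), against 25.4% and 7.71% of all deep sites. Housekeeping genes hosted a site in 1 of 15 cases, in Eif4g2. Marker genes of the myeloid and lymphoid lineages hosted sites in 0 of 9 and 0 of 12 cases, erythroid markers in 2 of 12 (16.7%, with 0 of 4 sites called between the antibodies), those of megakaryocytes and mast cells in 1 of 9 (Vwf) and non-haematopoietic ones in 1 of 15 (Cdh1). The lists differ in gene length, with medians of 83.5 kb of deep sequence in chromatin, 164 kb in actin and 10.5 kb in housekeeping genes, and the red-cell and marker lists overlap, for example in Ank1.

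**Figure D5:**
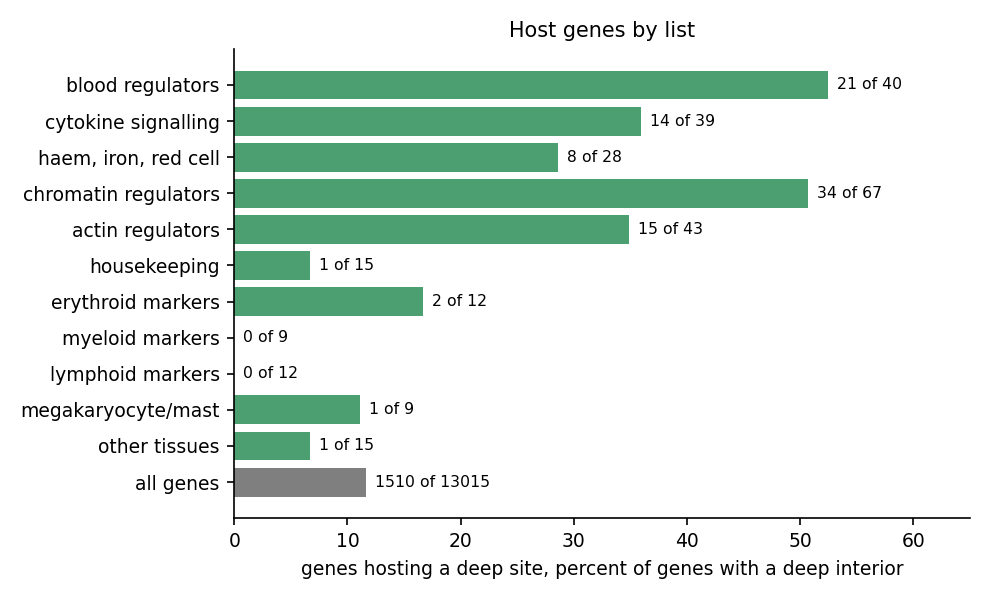
Genes that host a constant deep site, as a percent of the genes with sequence over 10000 bp from 5′ ends (x axis), for each gene list (bars, with counts). Blood regulators (52.5%) and chromatin regulators (50.7%) stand above all genes (11.6%, grey). The lists were chosen with earlier results of these data known.

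Neighbouring sites shared a raised background. The 395 sites within 12.5 kb of another deep site (19.3%) had a pileup percentile higher than the rest by 11.6 to 18.2 points over the 8 libraries and a fold percentile lower by 14.1 to 21.7 points (exact sign-flip permutation p = 0.00781 each, adjusted 0.0165). The local background was 4.88 fragments at these sites against 3.08 over all deep sites in Ser5P control 1, and 6.45 against 4.18 in Ser2P control 1. How far the neighbouring peaks themselves enter this background, and so lower the fold, was not tested. The 131 sites within 3000 bp of the 3′ end of the host had fold percentiles 9.5 to 16.6 points lower, in all 8 libraries.

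Some of the highest folds belonged to narrow sites. Among 20 sites chosen by their lowest fold percentile over the libraries, Lars2 (a mitochondrial leucyl-tRNA synthetase), Camk1d (a calmodulin-dependent kinase), Cntnap5b, Cmss1, Tmem267, Kctd16 and Cdk8 (the kinase of the Mediator complex, site 2) were between 331 and 493 bp wide, against the median of 882 bp, while Tmem131 site 3, Slc36a3 and Kansl1, also among the 20, were 1002, 1015 and 1137 bp wide. The Lars2 site (chr9:123461792-123462201) had folds of 35.6, 35.5, 28.9 and 28.9 in Ser5P control 1, control 2, KD 1 and KD 2 and of 36.4, 38.4, 28.5 and 26.7 in Ser2P, and Camk1d (chr2:5379040-5379398) 30.2, 29.4, 25.2 and 26.3 and then 30.8, 29.8, 25.7 and 23.7. Both antibodies gave nearly the same fold at these 2 sites, and each control library was above each KD library of its antibody. These are raw folds from libraries that differ in depth, so their order is no measure of a difference between the lines. At Cntnap5b the raw fold was 29.5 in both Ser5P controls and 22.5 and 22.8 in Ser5P KD, at a fold percentile of 100 in each. Whether fragments at Lars2 and Camk1d had a single place in the genome was not tested. Of the other 13 sites, 4 are the internal starts of Hdac4, Iffo2, Kansl1 and Lrif1, and others lie in Tmem131, Ctnna3, Slc36a3, Rnf14, Naaladl2, Rsbn1l, Stard13 and Galnt7.

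The limit of 10000 bp separated sites that lay within a short distance of each other. Just inside it were sites of Fbxl19 and Hmcn2 at 10045 and 10048 bp, and just outside it sites of Map3k6, Phrf1 and Slc23a1 at 9989, 9984 and 9982 bp. The farthest sites lay in Fhit at 708877 bp, where an annotated start was 274 bp away, in Sox5 at 666094 bp and in Zfhx3 at 509626 bp. After Kdm6b the widest were in Dgkz at 3301 bp and Cbfa2t3 site 6 at 2886 bp.

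Summit positions differed between antibodies and lines by about as much as between replicates. The median distance between the summits of a site was 52.5 bp (50 to 64) between the libraries of a group, 56.5 bp (49 to 63) between lines with the same antibody and 60 bp (52 to 61) between antibodies in the same line. The ranges of these distances overlap. In each pair of libraries 63.5% to 71.2% of the sites had summits within 100 bp of each other, and the mean distance over all nearest summits was 101 bp between antibodies.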

How the data were processed

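CUT&Tag for Rpb1 CTD Ser5P and Ser2P was measured in 8 libraries of MEL cells. The submitters' processing notes name MACS2 2.2.7.1, Bowtie2 2.3.5, cutadapt 2.7, Picard 2.21.4, SAMtools 1.9 and deepTools 3.3.1 and the build GRCm38/mm10, with settings not given in sources used here. The deposited peak lists hold, per peak, a score, the ratio (fold) of summit to local background, and −log10 p-values and −log10 q-values (at least 1.3), called by the authors in each library separately. No depth in fragments is given.

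Peaks on chromosomes 1 to 19, X and Y were merged when they overlapped by at least 1 bp; 24 to 30 peaks per library lay elsewhere. Of 21887 protein-coding genes, 352 had no strand, and both of their ends counted as 5′ ends. The whole-number summit pileup and local background were solved from the deposited fold and p (tolerance 0.001; at least 99.92% of peaks in each library) with a procedure tested on simulated data. limma 3.58.1 (R 4.3.3) fitted the 4 groups on median-centred log2 covered bp over 11773 regions and, as a measure chosen after the data were seen, on normal scores of summit pileup rank over 11747 regions, with Benjamini-Hochberg adjustment over all regions and a threshold of 0.05. Library medians were compared by two-sided exact permutation tests, with all arrangements enumerated (numpy 2.4.6). The Poisson tails used to solve the pileups came from scipy 1.17.1. Same-numbered libraries did not deviate together (correlations from -0.0335 to 0.0318), so no pairing was used.

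The sites and gene lists were chosen with earlier results of these data known. Named sites come from the 15 hosts with most sites, the 20 sites whose lowest fold percentile was highest (at most 2 per gene, predicted genes passed over), up to 6 sites per blood, signalling and red-cell list, the smallest p per contrast, and the nearest to the limit, widest and farthest; exceptions are stated. Alternatives were stricter or equal numbers of peaks, other distances and overlaps, other centring, a replicate block and leaving out each library. A few items are not reported here.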

Additional observations from a re-analysis of the deposited data

Results flagged for a closer look

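At 2 deep sites the difference between KD and control in median-centred covered bp had opposite signs with the antibodies, but the test of that difference did not pass. Tlcd3a site 1 (chr11:76201545-76202681), in a gene of the TLC domain family, covered 255 and 311 bp in Ser5P control, 712 and 1057 bp in Ser5P KD, 765 and 542 bp in Ser2P control and 736 and 619 bp in Ser2P KD, so that before centring the Ser2P groups overlap. KD minus control was 1.55 with Ser5P and -0.28 with Ser2P after centring, and the antibody by line interaction was 1.84 (SE 0.305, limma adjusted p = 0.412). Antxr1 site 2 (chr6:87183643-87184867), in a gene of a collagen-binding receptor, covered 711 and 705 bp in Ser5P control, 451 and 684 bp in Ser5P KD, 314 and 229 bp in Ser2P control and 1075 and 726 bp in Ser2P KD. KD minus control was -0.42 and 1.37, and the interaction was -1.79 (SE 0.343, limma adjusted p = 0.502). Both sites were picked from 2043 for these values.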

How the results depend on the processing

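Requiring −log10 q of at least 5 left 1358 deep sites in place of 2043. By covered bp, 11 sites were called between the antibodies with all libraries, 4 without centring, 5 with the replicate number as a block, 675 by summit pileup rank and 0 to 1 when a library was left out. By covered bp 0 sites were called between the lines with either antibody, and by summit pileup rank 21 with Ser5P and 44 with Ser2P. Those counts were 2 and 21 with the replicate block, and 0 to 7 and 0 to 18 when a library was left out. Same-numbered libraries share a number only. Against 675 antibody calls by pileup rank, the block gave 657. The median summit distance between antibodies was 101 bp when averaged over all nearest summits, against 60 bp.

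In 5 sites called by covered bp the sign turned on the fold rank: Ash1l 0.18, Ankrd11 0.27, Kdm6b -0.54, Abcc3 -0.1 and Fam186b -0.08; on the pileup rank it turned at Abcc3 (-0.22). The causes were not tested. With every annotated start of the promoter table counted as a 5′ end, 1698 sites remained. Asking for a peak in the other 7 libraries gave 2068 to 2335 sites, the most without Ser2P control 2, the shallowest.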
